A study of Mus musculus with 2 samples.

Results

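The hair shaft keratins described here were Krt31, Krt32, Krt33a, Krt33b, Krt34, Krt35, Krt81, Krt82, Krt83 and Krt86, chosen by name as 10 of the 32285 genes counted, and all 10 had at least 1 count in the kept cells of each library. Both groups were sampled from the dorsal skin of male C3H/HeN mice that were 7 weeks old when their backs were shaved and 9 weeks old at harvest. The labels say shaved, while the study's scheme of the experiment names depilation, and hair cycle stage, with which shaft keratin levels change, was not measured here, so a difference in stage between the pools cannot be told apart from one at a given stage. The Con group received vehicle, and the TP group, a model of androgenetic alopecia (AGA, patterned hair loss), received 0.5 mg of testosterone propionate per day under the skin. In each group the skin of 15 mice was pooled, digested with collagenase and cleared of debris on a density gradient. Each pool was run as 1 droplet library, so no difference between groups could be set against a spread between animals and no test was run. The group that also received a CXCL12-neutralizing antibody is not analysed here.

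The hair shaft is built from dead, keratin-filled cells that arise in the matrix of the growing follicle, move up and harden. Its keratins work in pairs, an acidic type I with a basic type II chain, and they are switched on in sequence: Krt35 comes on early, in the matrix and precortex, Krt32 and Krt82 mark the cuticle that covers the shaft, and the other members fill the cortex, the bulk of the hair. Keratin-associated proteins (Krtap genes) then crosslink the filaments through sulphur bridges. The surrounding inner root sheath, a mould for the shaft, uses keratins of its own, such as Krt25 and Krt71.

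The 6 type I members lay within 85.03 kb of chromosome 11 and the 4 type II members within 91.6 kb of chromosome 15 (RefSeq positions on GRCm38.p6). Sequence upstream of the start site was at hand for 5 members, Krt31, Krt32, Krt33b, Krt34 and Krt82. It is shown because Krt31, Krt33b and Krt34 are neighbours with their highest level in the same cell cluster, while Krt32 and Krt82 were highest in another, so that cortex and cuticle members can be read side by side. Each line gives the 250 bases before the start site from RefSeq, on the minus strand and 5′ to 3′. Capitals mark CTTTGAA, letters of the kind bound by Lef1 and its relatives, TTTTATG, letters of the kind bound by posterior Hox proteins, and TATAAA, the TATA box.
Krt31, chr11:100050552-100050801: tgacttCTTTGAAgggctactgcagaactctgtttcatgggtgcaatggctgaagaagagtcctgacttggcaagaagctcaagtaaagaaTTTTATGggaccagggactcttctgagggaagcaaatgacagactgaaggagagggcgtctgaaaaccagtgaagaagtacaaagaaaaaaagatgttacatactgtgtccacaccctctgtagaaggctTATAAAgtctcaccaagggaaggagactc
Krt33b, chr11:100029869-100030118: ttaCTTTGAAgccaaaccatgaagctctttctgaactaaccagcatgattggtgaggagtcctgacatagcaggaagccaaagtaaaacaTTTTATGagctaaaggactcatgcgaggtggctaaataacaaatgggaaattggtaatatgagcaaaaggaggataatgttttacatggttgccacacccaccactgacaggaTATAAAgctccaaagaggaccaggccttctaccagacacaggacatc
Krt34, chr11:100041555-100041804: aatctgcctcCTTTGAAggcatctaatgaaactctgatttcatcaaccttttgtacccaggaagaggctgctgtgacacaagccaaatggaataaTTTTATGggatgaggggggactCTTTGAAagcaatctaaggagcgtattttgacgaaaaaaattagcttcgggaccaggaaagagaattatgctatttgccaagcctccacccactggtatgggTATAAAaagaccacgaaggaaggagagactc
Krt32, chr11:100088270-100088519: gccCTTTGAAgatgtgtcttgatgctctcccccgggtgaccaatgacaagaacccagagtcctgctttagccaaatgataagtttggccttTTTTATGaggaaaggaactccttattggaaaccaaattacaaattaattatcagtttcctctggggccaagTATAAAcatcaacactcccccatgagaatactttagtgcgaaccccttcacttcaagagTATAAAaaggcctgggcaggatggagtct
Krt82, chr15:101550660-101550909: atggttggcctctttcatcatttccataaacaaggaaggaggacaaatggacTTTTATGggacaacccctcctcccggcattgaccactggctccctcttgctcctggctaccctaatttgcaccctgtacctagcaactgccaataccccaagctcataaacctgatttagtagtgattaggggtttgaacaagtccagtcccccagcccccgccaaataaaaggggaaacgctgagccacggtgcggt

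All 4 type I sequences held CTTTGAA and TTTTATG in the same order, with the first base of CTTTGAA 240 to 247 bases before the start site and that of TTTTATG 155 to 160 bases before it; Krt34 had a second CTTTGAA at 133 bases. Krt82, the type II cuticle member, held TTTTATG at 198 bases, without CTTTGAA or TATAAA in this window. TATAAA stood at 29 bases in Krt31 and Krt32, at 31 in Krt34 and at 47 in Krt33b, and Krt32 had another at 88. Among the 32851 RefSeq promoter windows of this length, searched on both strands, 4.46% held CTTTGAA, 3.77% held TTTTATG, 12.4% held TATAAA and 0.292% held both of the first pair. The letters were chosen with these sequences in view, no match overlapped another, and a match is a description of the window and not a bound site.

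After the study's limits on genes and mitochondrial counts and the removal of likely doublets, 39076 Con and 18542 TP cells were kept, with medians of 2049 and 4854.5 UMIs (unique molecular identifiers, each 1 captured transcript) per cell and 107122219 and 133708931 UMIs in all. Levels are UMIs per 1000000 UMIs of the same cells (CPM), with 95% exact intervals that cover counting error only. A UMI stands for 1 molecule captured at its 3′ end, so CPM was not divided by transcript length, and differences in capture between genes were not measured. The last 500 bases of each member's transcript shared no 90-base stretch with another gene, although over whole transcripts up to 31.3% of such stretches were shared (Krt81). Of the barcodes, 303 occurred in both libraries, 180 of them kept in each, and without them the summed ratio of TP to Con was 0.396 over all cells and 2.08 within the cortex-like cells described below.

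Over all kept cells, the 10 shaft keratins together were lower in TP, at 544 CPM in Con and 215 CPM in TP, a ratio of 0.395 (0.389 to 0.401). Krt35, the early member, made up 70.5% of these UMIs in Con and 61.2% in TP and went from 384 to 132 CPM, a ratio of 0.343. With each cluster weighted as in Con the summed ratio was 1.19, the opposite direction, and 0 members were at least 2-fold lower. With skin taken as a whole, fewer cells of a type and less RNA per cell cannot be told apart. At least 2-fold lower levels in TP were seen for 3 of 10 members and at least 2-fold higher levels for 0 of 10, against 10.3% lower and 8.23% higher of the 17580 genes with at least 50 UMIs. The members' median log2 ratio was -0.88, beside -0.24 over all these genes.

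The members past 2-fold were Krt35, Krt86 and Krt81. Krt86, a type II cortex keratin, stood at 26.2 CPM in Con and 6.36 in TP, a ratio of 0.243, and Krt81, its close relative, at 10.4 and 3.35 CPM. Krt31, Krt33a and Krt83, the abundant late cortex keratins, differed less, with 48.8 and 24.6 CPM for Krt31 (0.504), 30.1 and 19.6 for Krt33a (0.653) and 33.2 and 19.5 for Krt83 (0.587). Krt33b was at 2.997 and 2.17 CPM, Krt34 at 0.653 and 0.352, and Krt82 at 3.46 and 1.88. Krt32, the type I cuticle keratin, was the exception, at 4.67 CPM in Con (500 UMIs) and 5.48 in TP (733 UMIs), a ratio of 1.17 (1.05 to 1.32), but 86 of the 733 lay in a single TP cell that is described with the cuticle below. Without that cell and the Con cortex-like cell with most Krt32 the levels were 4.62 and 4.84 CPM, a ratio of 1.05 (0.930 to 1.18) whose interval includes 1, and 5 members were at least 2-fold lower in place of 3. Every other member was lower in TP over all cells.

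The cells were clustered without the members among the features, and classes were named from markers that do not include them. The cortex-like cluster, named from Krtap genes and Selenbp1, held 2809 Con cells and 322 TP cells, 7.19% and 1.74% of the kept cells, a ratio of shares of 0.242 (0.215 to 0.271). It held 44.2% of all member UMIs in Con and 48.6% in TP. For all 8 members other than Krt32 and Krt82 this cluster had the highest level of any cluster of at least 50 cells in each library. A smaller cluster with Vsig8 and S100a3, genes known from the shaft cuticle, among its leading genes was left unnamed because its markers were mixed, and it held 628 Con and 159 TP cells (1.61% and 0.858%). A further cluster led by Prr9 scored as inner root sheath-like and held 632 and 376 cells (1.62% and 2.03%).

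**Figure D1:**
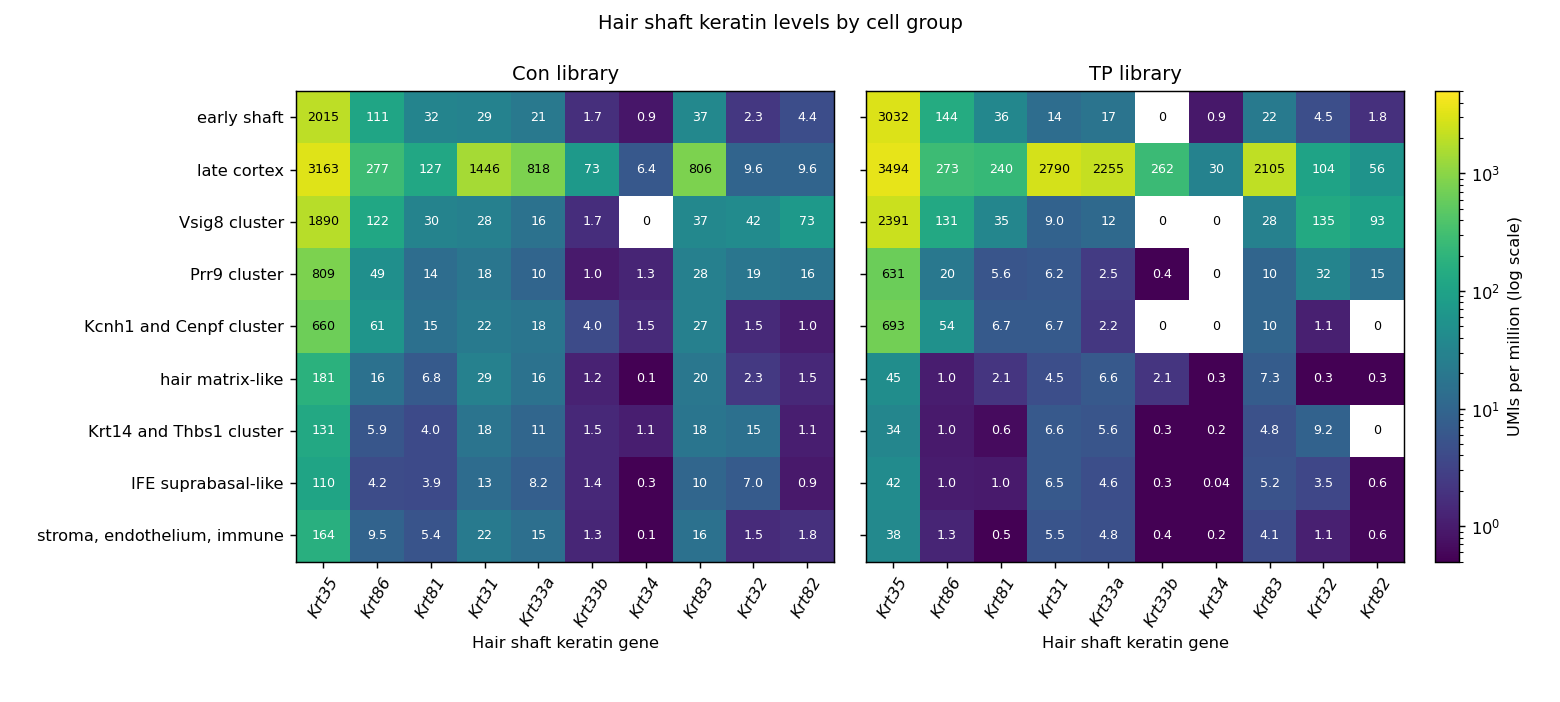
Level of each hair shaft keratin (columns) in groups of cells (rows) of the Con and TP libraries, in CPM, with the colour on a log scale, the rounded value printed in each square and white for no UMI; early shaft and late cortex are the main parts of the cortex-like cells, and IFE is interfollicular epidermis. Krt31, Krt33a and Krt83 stand out in late cortex cells among the groups drawn, at 806 CPM or more in both libraries, while Krt35 is high in early shaft cells and the Vsig8 cluster too, and Krt32 and Krt82 have their highest values in the Vsig8 cluster.

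Within the cortex-like cells the sum of the members was higher in TP, the opposite of its direction over all kept cells. The 10 members summed to 3347 CPM in Con and 6947 CPM in TP, a ratio of 2.08 (2.03 to 2.12). Krt35 was at 2294 and 3263 CPM (ratio 1.42), while Krt31 was at 375 and 1228 CPM (3.28), Krt33a at 215 and 998 (4.64) and Krt83 at 225 and 932 (4.14). Krt33b was at 19.1 and 115 CPM (6.02), Krt81 at 55.2 and 125 (2.26) and Krt86 at 152 and 201 (1.32). Of 9 members with at least 50 UMIs here, 7 were at least 2-fold higher and 0 at least 2-fold lower, against 2.74% and 4.86% of 10119 genes, and their median log2 ratio was 2.05 beside -0.13 over all genes. Krt32 and Krt82 are among the 7 and rest on 1 TP cell, and without it and the Con cell with most Krt32, 5 of the 7 members that still had 50 UMIs were at least 2-fold higher. Without the 3 cells with most member UMIs in each library Krt81 had a ratio of 1.22 (0.985 to 1.502), no longer 2-fold, Krt33b 2.79 (1.999 to 3.87), Krt31 2.52, Krt33a 3.17, Krt83 2.66 and Krt86 1.12 (0.986 to 1.27). The tenth, Krt34, had 17 UMIs in Con and 27 in TP.

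**Figure D2:**
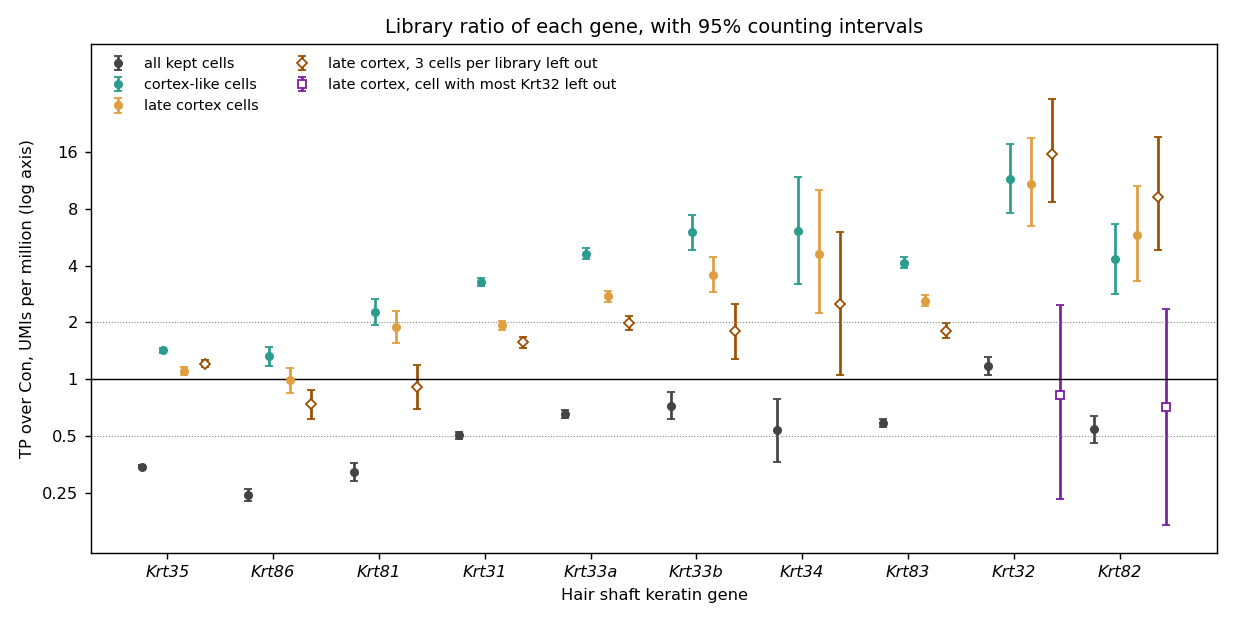
Ratio of TP to Con of each hair shaft keratin (log axis) over all kept cells, within cortex-like cells and within late cortex cells, with late cortex cells also shown after leaving out 3 cells per library or the cell with most Krt32; bars are 95% counting intervals and dotted lines mark 2-fold. All members but Krt32 lie below 1 over all cells, and all lie above 1 within cortex-like cells; without the cell with most Krt32, Krt82 falls below 1 in cortex-like cells, a value of 0.506 that is not drawn, and both cuticle members fall below 1 in late cortex cells.

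The cortex-like cells were a mixture, and the mixture differed between libraries. At a finer resolution 2267 of the 2809 Con cells and 207 of the 322 TP cells fell in an early shaft cluster, named shaft precursor-like, and 500 and 112 in a late cortex cluster, named cortex-like, with 42 and 3 in other clusters. With cells from elsewhere, the early shaft cluster held 2294 and 209 cells and the late cortex cluster 501 and 112. The late share of the cortex-like cells was 17.8% (16.4 to 19.3) in Con and 34.8% (29.6 to 40.3) in TP. Weighting both parts as in Con brought the summed ratio within cortex-like cells from 2.08 to 1.58. As shares of all kept cells, early shaft cells went from 5.87% to 1.13% (ratio 0.192, 0.166 to 0.221) and late cortex cells from 1.28% to 0.604% (ratio 0.471, 0.380 to 0.579). These intervals do not overlap, but they cover only the counting of cells in 1 pool per group. Cells of a pool are not replicates, and losses in digestion or filtering and the border between the clusters are not covered.

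Early shaft cells carried mainly Krt35, the first of the shaft keratins to appear. Krt35 stood at 2015 CPM in Con and 3032 CPM in TP (ratio 1.504, 1.45 to 1.56), and Krt86 was next, at 111 and 144 CPM. Krt31 was at 29.2 and 13.5 CPM (168 and 15 UMIs), below its level over all cells. Of 6 members tested, 1 was at least 2-fold lower (Krt31) and 0 higher, with 4.13% of genes lower and 1.24% higher. Stromal, endothelial and immune cells, which should lack Krt31, had it at 22.4 and 5.49 CPM. With that level subtracted Krt31 was at 6.82 and 8.02 CPM in early shaft cells, a ratio of 1.18 (0.499 to 2.48). No member was then 2-fold lower, and this interval leaves out the counting error of the subtracted level. In a further cluster that scored as cycling, with Knl1, Cenpf and Cenpe, known from mitosis, among its leading genes beside Kcnh1, Selenbp1 and Mcub, Krt35 was at 660 and 693 CPM and Krt86 at 61.1 and 53.7 CPM.

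Late cortex cells held 51.9% of all Krt31 UMIs in Con and 74.5% in TP, with 1.28% and 0.604% of the cells. Their summed member level was 6735 CPM in Con and 11608 CPM in TP, a ratio of 1.72 (1.68 to 1.77). Krt35 was at 3163 and 3494 CPM (1.10), Krt31 at 1446 and 2790 (1.93), Krt33a at 818 and 2255 (2.76), Krt83 at 806 and 2105 (2.61), and Krt33b at 73.0 and 262 (3.58). Krt81 was at 127 and 240 CPM (1.89), and Krt86 at 277 and 273 CPM, a ratio of 0.985 (0.842 to 1.15). Of 9 members tested, 5 were at least 2-fold higher and 0 at least 2-fold lower, against 2.8% and 2.96% of 7038 genes. The interval of Krt86 included 1, and the ratio of Krt83 to Krt86, both type II cortex keratins, was 2.91 in Con and 7.70 in TP.

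A few cells carried much of this. Counted gene by gene, so that the cells are not always the same, the 3 of 112 TP late cortex cells with most UMIs of a gene held 42.6% of the Krt31 UMIs, 49.1% of the Krt33a UMIs, 53.5% of the Krt83 UMIs and 72.2% of the Krt33b UMIs, and in Con the 3 of 501 cells chosen in the same way held 21.1%, 23.1%, 27.8% and 44.5%. The TP cell with most member UMIs had 1510 of them among 34810 UMIs, with 506 of Krt31 and 29 of Krt35, and the Con one had 677 of 13089, with 202 of Krt31 and 1 of Krt35. Without the 3 cells with most member UMIs in each library the summed late cortex ratio was 1.42 (1.38 to 1.47), and 2 members were at least 2-fold higher in place of 5, both of them resting on the cell described with the cuticle members below. In that setting Krt31 had a ratio of 1.57, Krt33a 1.99, Krt83 1.81, Krt33b 1.79, Krt35 1.21, Krt86 0.736 (0.613 to 0.881) and Krt81 0.908 (0.691 to 1.18), so that the interval of Krt86 now lay below 1.

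Cell by cell, the median late cortex cell had 12 member UMIs in Con and 31 in TP, out of medians of 2995 and 5686 UMIs in all. To compare cells at 1 depth, each was thinned to 1000 UMIs. Krt35 was then seen in 80.8% (77.1 to 84.2) of late cortex cells in Con and 70.5% (61.2 to 78.8) in TP, Krt31 in 40.9% (36.6 to 45.4) and 46.4% (37.0 to 56.1), Krt33a in 25.9% and 33.9%, Krt83 in 22.4% and 27.7%, and Krt86 in 21.8% and 17.0%. The intervals of the libraries overlapped for each of these genes. Without thinning, 474 of 501 Con and 105 of 112 TP cells had Krt35, and 289 and 69 had Krt31. Stromal, endothelial and immune cells, which should lack the genes and had medians of 2352 and 4858 UMIs, showed Krt35 in 15.2% and 4.40% of cells and Krt31 in 2.23% and 0.613% at the same depth. Every late cortex share named here was above that background.

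Krt33a and Krt83 were seen more often in late cortex cells with Krt31 than in those without it. Among thinned late cortex cells with Krt31, Krt33a was seen in 48.3% in Con and 65.4% in TP, and among those without Krt31 in 10.5% and 6.67%. Krt83, a type II chain, followed Krt31 in the same way, in 39.5% and 53.8% of cells with Krt31 and in 10.5% and 5% of cells without. Krt31 was seen in 37.8% (33.0 to 42.7) of Con cells with Krt35 and in 54.2% (43.7 to 64.4) of those without it, and in TP in 39.2% (28.4 to 50.9) and 63.6% (45.1 to 79.6). The TP intervals overlap and the Con ones do not, and most cells with Krt31 also had Krt35, 153 of 205 in Con and 31 of 52 in TP. In all cortex-like cells Krt31 was seen in 10.6% (9.22 to 12.1) of Con cells with Krt35 and 9.97% (8.05 to 12.2) of those without, and in TP in 15.9% (11.3 to 21.4) and 19.6% (12.2 to 28.9), with overlapping intervals in both libraries. The cells of 1 library are not replicates of a condition, and these shares describe the cells of these libraries.

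**Figure D3:**
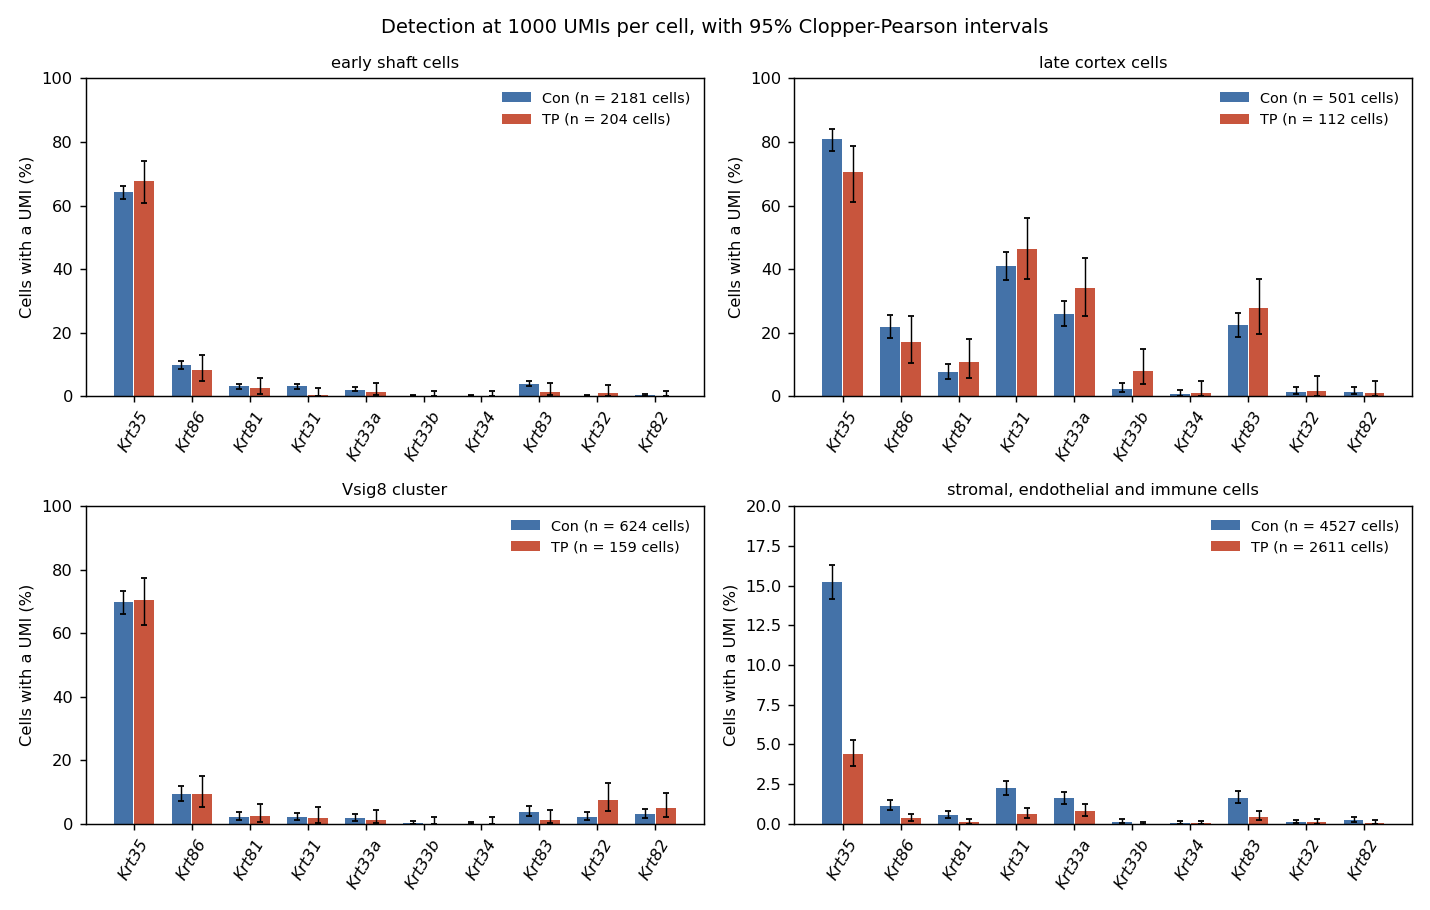
Share of cells with a UMI of each hair shaft keratin after thinning every cell to 1000 UMIs, by group of cells, for Con and TP, with 95% exact binomial intervals and a shorter axis for stromal, endothelial and immune cells. Krt31, Krt33a and Krt83 are seen mainly in late cortex cells (Krt31 in 40.9% and 46.4%), Krt35 also in early shaft cells and the Vsig8 cluster, in 64.1% to 70.4% of cells.

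The cuticle members, Krt32 and Krt82, had another distribution. In the Vsig8 cluster Krt32 was at 42.1 CPM in Con (76 UMIs in 33 of 628 cells) and 135 CPM in TP (105 UMIs in 26 of 159 cells), a ratio of 3.21 (2.37 to 4.37). Krt82 was at 72.5 and 92.6 CPM, a ratio of 1.28 (0.944 to 1.71). Among the other members in that cluster, Krt35 was at 1890 and 2391 CPM (1.27), Krt86 at 122 and 131 CPM, and Krt31 at 27.7 and 9.00 CPM (50 and 7 UMIs). Of 7 members tested, 1 was at least 2-fold higher (Krt32) and 1 lower (Krt31), against 1.77% and 2.3% of genes. Krt31 lay near its stromal level of 22.4 and 5.49 CPM, and with that level subtracted it was at 5.27 and 3.52 CPM, a ratio of 0.667, while that of Krt32 was 3.30. Krt34 had 0 UMIs in both libraries there, and Krt33b had 3 and 0, with 3 counts corresponding to 1.66 and 3.86 CPM.

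After thinning to 1000 UMIs, Krt82 was seen in 6 of 14 Vsig8 cluster cells with Krt32 in Con and 3 of 12 in TP, and in 2.13% and 3.40% of those without Krt32. None of the 14 Con cells with Krt32 had Krt31, which allows a share of up to 23.2% by the exact interval, and 1 of 12 TP cells did. Both cuticle members were thus seen in part in the same cells of this cluster.

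In cortex-like cells the cuticle values rested on 1 cell. Krt32 was at 4.16 CPM in Con and 47.8 in TP, a ratio of 11.5, and Krt82 at 5.72 and 24.9, a ratio of 4.35, but a single TP cell held 86 of the 96 Krt32 UMIs and 45 of the 50 Krt82 UMIs. That cell, with 17469 UMIs, also held 2325 UMIs of S100a3, a calcium-binding protein of the cuticle, 132 of Krt31 and 2 of Krt35. Without it and the Con cell with most Krt32, the ratio of Krt32 was 1.43 (0.615 to 3.04) and that of Krt82 0.506 (0.156 to 1.29) in cortex-like cells, and 0.825 (0.230 to 2.47) and 0.715 (0.168 to 2.36) in late cortex cells, where they had been 10.8 and 5.81. No difference in the cuticle members was detectable at this depth in the remaining cortex-like or late cortex cells.

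Krt32 was also found where the other members were scarce. Of its UMIs, 22.4% in Con and 23.2% in TP were in suprabasal cells of the interfollicular epidermis, the skin between hairs. Basal ones held 12.2% and 11.6%. The suprabasal level of Krt32 was above that over all kept cells in Con (7.03 against 4.67 CPM) but below it in TP (3.53 against 5.48 CPM). Against the level over all kept cells, which includes the Vsig8 cluster, the TP share therefore marks no concentration of Krt32 in suprabasal cells. Both suprabasal levels were above those of stromal, endothelial and immune cells, at 1.54 and 1.13 CPM. In a basal cluster led by Krt14, with Thbs1 among its leading genes, there were 0.115 Krt32 UMIs per Krt35 UMI in Con and 0.270 in TP, and in stromal, endothelial and immune cells other than dermal papilla-like ones 0.0124 and 0.0342. The level of Krt32 itself was lower in TP in the basal cluster, at 15.0 and 9.20 CPM (ratio 0.613, 0.403 to 0.940), where Krt35 was at 131 and 34.1 CPM (0.261), and in suprabasal cells, at 7.03 and 3.53 CPM (0.503, 0.394 to 0.644). The basal cluster's Krt32 UMIs were spread out, over 40 of 771 Con cells and 52 of 844 TP cells with at most 2 per cell. The intervals of these ratios in the basal cluster and in the stromal cells did not overlap in either library. Thinned to 1000 UMIs, Krt32 was seen in 1.43% and 1.18% of the basal cluster's cells and in 0.110% and 0.115% of stromal, endothelial and immune cells.

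**Figure D4:**
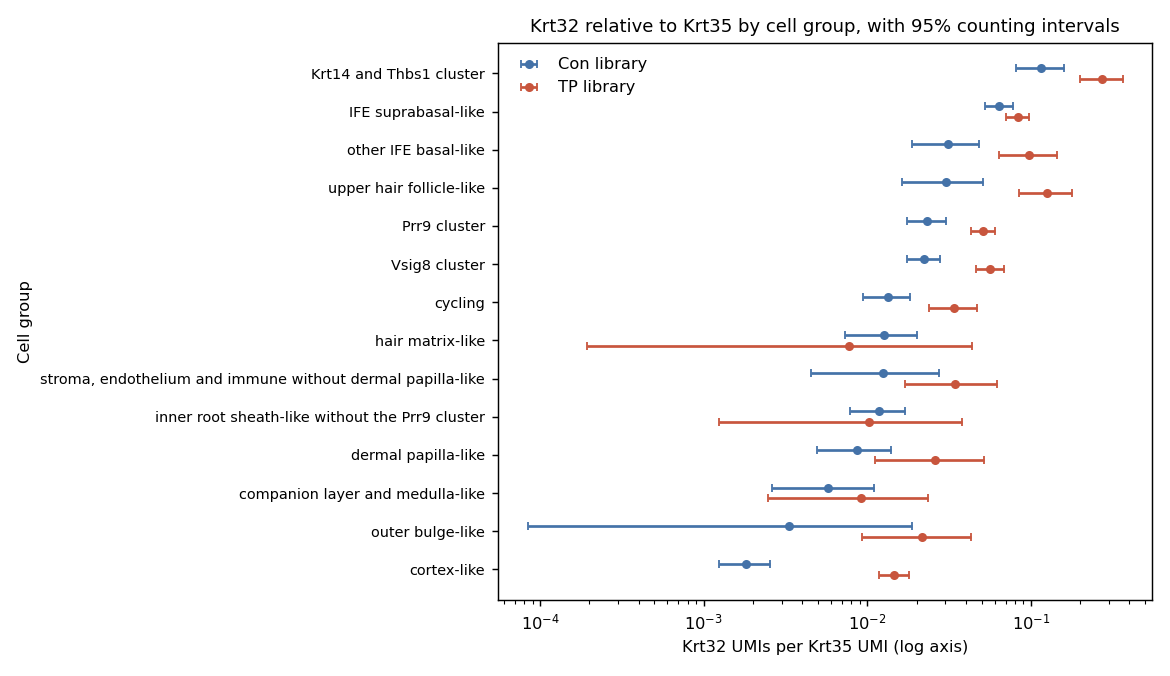
Krt32 UMIs per Krt35 UMI (log axis) in groups of cells of each library, with 95% counting intervals; IFE is interfollicular epidermis. The ratio runs from 0.00181 in Con cortex-like cells to 0.270 in the TP cluster led by Krt14 and Thbs1, and in most groups the TP point lies to the right of the Con point. In TP cortex-like cells 86 of the 96 Krt32 UMIs lay in 1 cell. A higher ratio need not mean more Krt32, which was lower in TP in the Krt14 and Thbs1 cluster, at 15.0 and 9.20 CPM.

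In the Prr9 cluster 4 of 7 members tested were at least 2-fold lower in TP, against 4.67% of genes, and 0 were higher, against 5.21%. Of 6 epidermal keratins tested there, 3 were at least 2-fold higher. Krt10 was at 1044 and 8173 CPM and Krt1 at 508 and 2732 CPM, beside stromal levels of 726 and 1151 and 311 and 582 CPM. Whether this bears on the members was not tested. Krt35 was at 809 CPM in Con and 631 in TP (ratio 0.780, 0.739 to 0.822), and the sum of the members at 966 and 723 CPM. The members past 2-fold were Krt31 (18.4 and 6.23 CPM), Krt81 (13.6 and 5.61), Krt83 (27.8 and 10.2) and Krt86 (49.2 and 20.1). Krt32 was higher in TP in this cluster, at 18.8 and 32.2 CPM, a ratio of 1.72 (1.26 to 2.36), and Krt82 was at 16.5 and 15.4 CPM, a ratio of 0.932 (0.644 to 1.36).

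Several of these levels were near those of stromal, endothelial and immune cells, which differed between the libraries too, at 237 CPM of all members in Con and 56.1 in TP (ratio 0.237). With the stromal level subtracted, the summed ratio in the Prr9 cluster was 0.908 (0.860 to 0.958), and with stromal UMIs per cell subtracted 0.842 (0.799 to 0.886). Both intervals leave out the counting error of the subtracted level. Krt31 and Krt33a in Con, at 18.4 and 10.0 CPM, lay below their stromal levels of 22.4 and 14.6 CPM. Krt35 then had ratios of 0.920 and 0.859, Krt81 0.626 and 0.515, Krt83 0.499 and 0.441, and Krt86 0.474 and 0.447. Of the members still with 50 UMIs, 1 was at least 2-fold lower with the level subtracted (Krt86) and 2 with UMIs per cell subtracted (Krt83 and Krt86), in place of 4, and Krt83 missed the 2-fold limit in the first of these once 1 UMI was added per library.

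Many member UMIs lay outside the cortex-like, Vsig8 and Prr9 clusters, in cells that include a companion layer and medulla-like class and hair matrix-like ones. The summed level there was 270 CPM in Con and 72.2 CPM in TP, a ratio of 0.267, and these cells held 43.8% and 31.7% of all member UMIs. Krt31 was at 23.7 and 6.22 CPM there, Krt83 at 17.7 and 5.29 CPM, and Krt32 at 3.53 and 2.99 CPM, a ratio of 0.846 (0.728 to 0.983). Stromal, endothelial and immune cells alone had 237 and 56.1 CPM of all members, 22.4 and 5.49 of Krt31, 15.6 and 4.06 of Krt83 and 1.54 and 1.13 of Krt32, so the first of these sums and its ratio of 0.237 lie close to the values outside the 3 clusters. In the 8 stromal, endothelial and immune clusters the members came to 0.411 to 0.697 UMIs per cell in Con and 0.173 to 0.371 in TP. Krt35 led in these 8 clusters too, at 164 and 37.7 CPM. Subtracting the stromal level in each library moved the summed cortex-like ratio from 2.08 to 2.22, so the direction within these cells was the same with and without it.

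**Figure D5:**
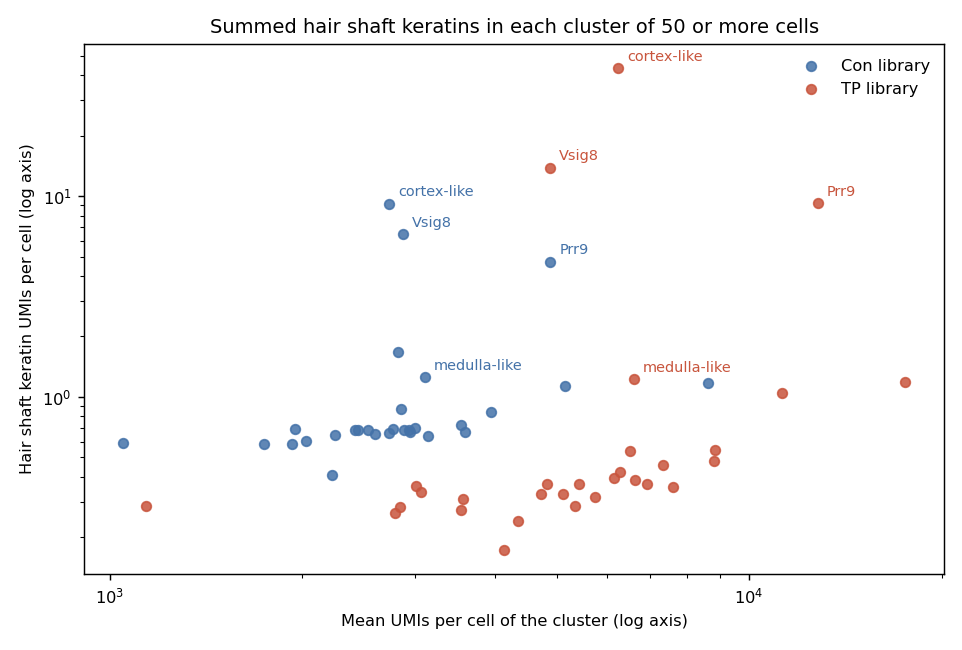
Hair shaft keratin UMIs per cell (log axis) against mean UMIs per cell (log axis) for each cluster of 50 or more cells, in Con and TP, with the named hair follicle clusters labelled. Cortex-like cells stand highest, at 9.17 UMIs per cell in Con and 43.4 in TP, and the 8 stromal, endothelial and immune clusters lie between 0.173 and 0.697.

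The balance of type I to type II chains, counted over these 10 members alone, differed by stage. Other hair keratins were left out of it. Among them, Krt87 had 525 Con and 94 TP UMIs in early shaft cells and 1033 and 1090 in late cortex cells. The ratios below therefore hold for this set and not for all hair keratin chains. In early shaft cells there were 11.2 type I UMIs per type II UMI in Con and 15.1 in TP, in late cortex cells 4.52 and 3.34. Leaving Krt35 out, late cortex cells had 1.93 (1.83 to 2.03) type I UMIs per type II UMI in Con and 2.03 (1.94 to 2.14) in TP. The intervals of these last values overlapped, and the difference in the full ratio of late cortex cells went with the share of Krt35, which was 47.0% of member UMIs in Con and 30.1% in TP.

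Other genes of the shaft and its neighbours were counted in the same cortex-like cells, where 2.74% of all genes were at least 2-fold higher and 4.86% lower. Of 9 Krtap genes tested, 7 had at least 2-fold higher levels in TP and 1 a lower level. Krtap8-1 was at 391 and 1333 CPM and Krtap7-1 at 290 and 1173 CPM, and both are among the markers that named the class. In late cortex cells 7 of 7 Krtap genes tested were higher, against 2.8% of genes. In early shaft cells 3 of 5 were at least 2-fold lower and 0 higher, against 4.13% and 1.24% of genes. In the Vsig8 cluster 2 of 2 were lower, and in the Prr9 cluster 2 of 3, against 2.3% and 4.67% of genes. In early shaft, Vsig8 and Prr9 cells, Krtap8-1 and Krtap7-1 lay below their levels over all kept cells in both libraries. Krtap7-1 was at 40.4 and 13.5 CPM in early shaft cells, beside 46.03 and 24.43 CPM over all kept cells. Krtap15 went the other way in early shaft cells, at 16.4 and 9.91 CPM beside 10.7 and 4.27. Stromal levels of the Krtap genes are not given here, and a part of free RNA in their lower levels was not tested. Of 3 other hair keratins tested in cortex-like cells 1 was higher, Krt87, at 203 and 591 CPM. Among 12 genes of shaft structure 6 were higher and 2 lower, with S100a3 at 317 and 2041 CPM and Tchh, trichohyalin of the inner root sheath and medulla, at 506 and 111 CPM. The shaft transcription factors differed less, with 1 of 13 higher and 0 lower, and Lef1, a Wnt effector of the matrix and precortex, was at 2475 and 2529 CPM. Of the 4101 S100a3 UMIs in TP cortex-like cells, 2325 lay in the cell that carried Krt32 and 581 in another, so much of that TP level lay in these cells. Tchh was lower in TP in both main parts of the cortex-like cells too. It was at 421 and 78.5 CPM in late cortex cells and 539 and 139 CPM in early shaft cells. In the Vsig8 cluster it was at 452 and 117 CPM, but in the Prr9 cluster at 1333 and 1870 CPM, a ratio of 1.40. Its stromal level is not given here, and a part of free RNA in its difference was not tested.

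Keratins of other layers were counted in these cells as well. Of 5 inner root sheath keratins tested in cortex-like cells 4 were at least 2-fold lower in TP, against 4.86% of genes, with Krt25 at 736 and 205 CPM and Krt71 at 631 and 110 CPM, beside 654 and 106 and 596 and 84.1 CPM in stromal, endothelial and immune cells. Of 6 epidermal keratins 4 were at least 2-fold higher, against 2.74% of genes, with Krt10 at 704 and 2081 CPM and Krt1 at 296 and 980 CPM, beside stromal levels of 726 and 1151 and 311 and 582 CPM. Over all kept cells the same lists gave 5 of 7 lower and 4 of 6 higher, against 10.3% and 8.23% of genes, with Krt10 at 3001 and 10136 CPM. Their part in the results on the shaft keratins was not tested.

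Over all kept cells, all 4 other hair keratins tested, 17 of 24 Krtap genes, 5 of 13 transcription factors and 3 of 12 genes of shaft structure were at least 2-fold lower in TP, with 0, 1, 0 and 0 higher, against 10.3% lower and 8.23% higher of all genes. Lef1 was at 700 and 293 CPM, Gata3, a factor of the inner root sheath, at 325 and 286 CPM (ratio 0.881), and S100a3 at 199 and 186 CPM (0.936). Krt87 was at 30.4 and 13.8 CPM. Median log2 ratios were -1.40 for the other hair keratins, -2.80 for the Krtap genes, -0.73 for the transcription factors and -0.52 for the structure genes, beside -0.88 for the members.

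Across 59 points, each a cluster of at least 50 cells in 1 library, the genes whose log2(CPM + 1) was most like that of the summed cortex members were Krt87 (Pearson's r 0.903), Krtap7-1 (0.878), Gprc5d (0.854), Krtap8-1 (0.824) and Krtap11-1 (0.823), out of 13334 genes. For the cuticle members they were Krtap24-1 (0.801), Calhm4 (0.789), Vsig8 (0.773), S100a3 (0.757) and Slc6a13 (0.756). For Krt35 they were Krt87 (0.921), Dsg4 (0.912), Dclk3 (0.897), Rnaset2a (0.887) and Hes2 (0.864). Points of 1 library share its depth and its free RNA, so these values describe likeness only.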

How the data were processed

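Dorsal skin cells of 1 Con and 1 TP pool were analysed. The deposited values are raw counts of UMIs per gene and barcode, which the authors made with Cell Ranger 8.0.1 on mm10 (per the submitters' processing notes), before filters. Kept barcodes had 200 to 8000 genes and no more than 10% of their counts from mitochondrial genes. The DoubletFinder procedure was rewritten (artificial doublets at 25%, 30 components, nearest 1%), and the 7.5% of barcodes ranked highest per library were removed. Seurat 5.3.0 (R 4.3.3) was used for integration and Louvain clustering, with 2000 variable genes, 30 components and resolution 1, and 0.5 and 2 as alternatives. The members and other genes of the shaft lists, 98 in all, were kept out of the clustering features. The members were also kept out of naming, while Krtap genes served there as cortex markers. The study itself marks cortex by Krt35. A cluster took the class of highest marker score of at least 1, with at least 3 markers detected, a marker among its 30 leading genes and no class with more markers among its 10 leading genes. This rule and the names were set after clusters had been seen. Groups came from the labels.

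Ratios are of UMIs summed per class and scaled to 1000000. Intervals are exact Poisson, Clopper-Pearson or conditional binomial at 95%, for counting error only. After a stromal level was subtracted, the remaining UMIs were treated as counts. Those intervals leave out the error of the subtraction and are too narrow. A zero is read against 3 counts. Genes with at least 50 UMIs over both libraries count as tested, and a called gene differs at least 2-fold, with 1 UMI added per library before scaling. Shares of cells were taken after thinning each cell to 1000 UMIs, leaving out shallower cells (104 Con and 5 TP of the cortex-like cells). With 1 library per group there is no test and no p-value. TMM factors came from edgeR 4.0.16, and other steps ran in Python 3.11.15. The counting code was tested on simulated data. The members and lists were chosen with earlier results of these data known. Genes named are the members, at most 4 per companion list with most UMIs, and the 5 most alike per pattern; single cells and leading genes were singled out after their values were seen. Positions and promoters come from RefSeq on GRCm38.p6, and shared stretches from GENCODE transcripts of GRCm39.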

Additional observations from a re-analysis of the deposited data

Results flagged for a closer look

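The following values were picked out because the counting interval of a member's library ratio, or that of the sum, lay wholly above 1 in cortex-like cells and wholly below 1 in the Vsig8 or Prr9 cluster. The difference between clusters was not tested, since each library is 1 pool. In the Vsig8 cluster this held for Krt31, at 0.325 (50 and 7 UMIs) against 3.28 in cortex-like cells, beside 0.245 in stromal, endothelial and immune cells. With the stromal level subtracted it was 0.667 on few UMIs. In the Prr9 cluster it held for the summed members, at 0.749 against 2.08, and for Krt35 (0.780 against 1.42), Krt31 (0.338 against 3.28), Krt33a (0.249 against 4.64), Krt83 (0.366 against 4.14), Krt81 (0.413 against 2.26) and Krt86 (0.410 against 1.32). Krt34 had 4 UMIs in the Prr9 cluster of Con and 0 in TP, a ratio of 0 against 6.08 in cortex-like cells, and 4 and 0 UMIs lie near the limit that 3 counts set. The stromal ratios were 0.237 for the sum, 0.229 for Krt35, 0.245 for Krt31 and 0.326 for Krt33a, and with the stromal level subtracted the Prr9 ratios were 0.908 for the sum and 0.920 for Krt35, with no Krt31 or Krt33a left in Con. In cortex-like TP cells the 3 cells with most Krt31 held 42.3% of its UMIs, and the 3 with most Krt83, not all the same cells, held 52.9% of its UMIs.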

How the results depend on the processing

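No paired analysis was possible because each group is 1 library, and for the same reason no library could be left out. The cause of a change below was not tested unless the setting's construction shows it. Over all kept cells the summed ratio (0.395) was 0.470 with TMM factors, 0.404 over all deposited barcodes and, with clusters weighted as in Con, 1.19, the opposite direction, since that setting fixes the cell mix. Krt81 then stood at 1.07, and it was not alone. Over all alternatives for these cells, 7 values of single members lay on the other side of 1 from the main value and 54 on the same side. The count of members at least 2-fold lower (3) was 5 with doublets kept, 5 without the cell with most Krt32 in each library and 0 with clusters weighted as in Con. Within cortex-like cells the summed ratio (2.08) was 2.25 with TMM, 2.22 with the stromal level subtracted as CPM or per cell, 1.79 in cells thinned to 1000 UMIs, 1.74 without the 3 cells with most member UMIs per library, 1.58 with late and early parts weighted as in Con, 1.83 at resolution 0.5, 1.72 at resolution 2 and 1.77 with hair keratins and Krtap genes left in the features. The Vsig8 cluster ratio (1.27) was 1.39 with the stromal level subtracted, 1.38 per cell, 1.35 after thinning and 1.38 at resolution 2, where the class that scored highest as shaft precursor pools the early shaft cluster with the Vsig8 one; resolution 0.5 gave no such cluster. For late cortex cells the ratio (1.72) was 1.92 with TMM, 1.78 with the stromal level subtracted, 1.54 after thinning and 1.42 without 3 cells, and the count of members at least 2-fold higher (5) was 3 after thinning, 2 without 3 cells and 3 with a minimum of 200 UMIs. With the stromal level subtracted, and with it subtracted per cell, the Prr9 cluster ratio (0.749) was 0.908 and 0.842 and its count of members at least 2-fold lower (4) was 1 and 2, and the early shaft ratio (1.45) was 1.59 and 1.61 and its count (1) was 0 and 0. Among single genes, Krt31 turned to 1.18 and 1.89 in early shaft cells under these settings, Krt33a to 2.03 and 2.83 and Krt34 to 0.989 and 0.984. In the Prr9 cluster Krt33b turned to 1.11 per cell and Krt82 to 1.01 with the level subtracted. Krt34 turned to 0.746 in thinned late cortex cells. Without the cell with most Krt32, Krt82 turned to 0.506 in cortex-like and 0.715 in late cortex cells and Krt32 to 0.825 in the latter.

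Type I over type II in cortex-like cells was 4.52 (resolution 2) and 4.44 (hair genes left in) in Con in place of 6.64, and 4.804 (resolution 0.5), 3.34 and 3.32 in TP in place of 4.42. The cortex-like share of member UMIs was 52.9%, 21.7% and 21.6% in Con (44.2%) and 57.1%, 35.5% and 35.6% in TP (48.6%) under these 3 settings. The share of cells with any member was 70.6%, 95.8%, 96.6%, 57.8% (500 UMIs) and 87.4% (no thinning) in Con (76.2%), and 74.1%, 91.1%, 93.1%, 68.6% and 92.2% in TP (80.1%). The alternatives added after seeing the data are those without certain cells or shared barcodes, the per-cell subtraction, both subtractions in Prr9 and early shaft cells, the weighting of late and early parts, and all for late cortex cells. Depth limits what can be said of Krt34, with 17 and 27 UMIs in cortex-like cells, and of the cuticle members there, with 76 and 146.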

Other observations

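Barcodes that the filters removed carried shaft keratins as well. Barcodes over the mitochondrial limit, 3465 in Con and 5871 in TP, held the 10 members at 1245 and 458 CPM, above 544 and 215 CPM in the kept cells of each library. Krt31, a late cortex keratin, was at 241 and 74.4 CPM there, above 48.8 and 24.6 CPM in kept cells, and Krt35, the early one, at 488 and 190 CPM beside 384 and 132. In those removed barcodes too, every value given here was lower in TP. Barcodes removed as doublets had the members at 353 CPM in Con and 137 CPM in TP. A shallow cluster that was left unnamed, 6283 Con and 375 TP cells with medians of 898 and 741 UMIs, had 55.3 and 25.7 CPM of Krt31, close to the level over all kept cells.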
